A study of Rattus norvegicus with 40 samples.

Results

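Cultured rat heart muscle cells held for 30 min under ischemia were compared with cells at 0 min, on 8 of the 40 arrays of the series. All arrays that the labels call 30 min or 0 min ischemia without reperfusion were taken, 4 per group, and in each group 2 came from cell preparation 1 and 2 from preparation 2. The cells were neonatal rat ventricular myocytes (NRVMs), freshly isolated heart muscle cells that beat in culture, and they were deprived by coverslip hypoxia, in which glass laid over the cells limits their exchange of oxygen and medium. Total RNA was labelled with biotin and hybridised to Affymetrix rat genome arrays. No group carried a genotype or a drug in the labels, and neither strain, sex, exact age nor pooling of animals is stated by the sources at hand. The 0 min cells were NRVMs of the same preparations, and the labels do not say how they were handled. The whole series also holds ischemia of 10, 60 and 120 min, and a matching set of 5 groups with reperfusion.

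When oxygen falls, the prolyl hydroxylases that mark the hypoxia-inducible factors (HIFs) for destruction slow down, and HIF1 and HIF2 then bind the DNA of genes for glucose uptake, glycolysis, vessel growth and mitochondrial turnover. A second and separate response uses the immediate early genes, such as Fos and Egr1, whose transcription starts within minutes of calcium, growth factor or stress signals because no new protein has to be made first. Sterol synthesis is an oxygen-consuming pathway whose enzymes are controlled together by the SREBP transcription factors.

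Levels are given as log2(intensity + 16) after quantile normalization, where 4 is the floor of a probe set listed at 0 or below. A change is the 30 min level minus the 0 min level on that scale, so it understates the change of dim probe sets, and its standard error (SE) comes from limma with n = 2 preparations per group. P-values were adjusted over 18625 tested probe sets, and a call is an adjusted p under 0.05. The median SE was 0.118 log2 units, so a 95% interval reached 0.258 to either side of a change, a precision that 2 preparations a group limit. Duplicates were averaged first, so these p-values measure how far the averages of the 2 preparations disagree over the 10 groups. The gap between duplicates is not measured by them. Nothing in the labels says that duplicates came from separate cultures, so the spread between samples may be technical. In RNA from a whole culture, fewer cells of a type and less RNA per cell cannot be told apart.

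The 0 min array of preparation 1, duplicate 1, stood apart from the other 39. Its median correlation with the other arrays was 0.872, while theirs ran from 0.960 to 0.979. The difference lay in single probe sets more than in the array as a whole. Among 1174 genes with a pair of probe sets whose levels differ by over 2 log2 units, this array had 159 genes, 13.5%, with the pair in the opposite order, while each of the other 39 arrays had 0 to 3 of 1171 to 1177 such genes. Dusp1 is an example: its probe sets read 8.50 and 10.88 in this array, while at 0 min the other 3 arrays read 10.59 to 10.82 for the first and 7.51 to 8.49 for the second. Hif1a, the oxygen-regulated subunit of HIF1, lay at the floor in this array and between 12.07 and 12.09 in the other 0 min arrays. The reason was not tested. The changes of genes and gene lists at 30 against 0 min are therefore given with and without this array, which is referred to as the outlying array. Changes at other times, and counts for which nothing else is stated, include it.

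**Figure D1:**
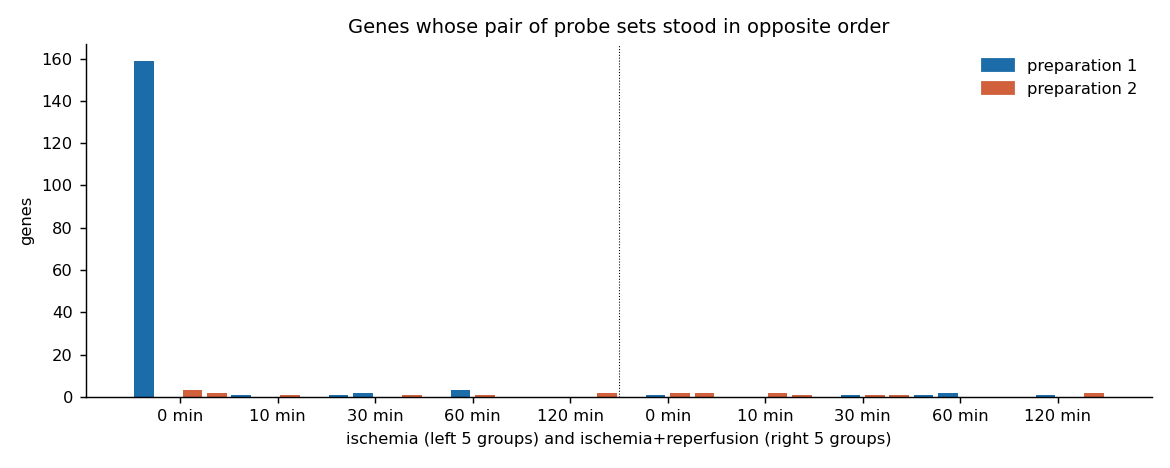
Number of genes in each of the 40 arrays (bars, coloured by preparation) whose pair of probe sets stood in the opposite order to the mean of the other arrays, among the 1171 to 1177 genes whose pair had a gap of over 2 log2 units in that mean. The outlying 0 min array of preparation 1 had 159 such genes, and the other 39 arrays had 0 to 3.

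The arrays carried the RNA of heart muscle cells in both groups. All 17 cardiomyocyte markers on the array passed the filter on dim probe sets, their summed intensity ran from 150540 to 155360 at 30 min and from 139000 to 155880 at 0 min, where the outlying array was the lowest, and their median change was 0.00, and -0.01 without the outlying array. Most of these markers lay near the top of the array scale, where Nppa read 13.80 in all 4 arrays at 30 min, so this median says little about their amount. Markers of other cells a heart culture can hold had median changes of 0.12 for 10 endothelial, -0.02 for 14 fibroblast, 0.04 for 10 smooth muscle and pericyte, and -0.05 for 14 macrophage genes, and of 0.13, -0.03, 0.05 and -0.04 without the outlying array. Vwf and Cldn5 of the endothelial list, and Cd163, Adgre1 and Itgam of the macrophage list, did not pass the filter, and Cd163 was at the floor in all 8 arrays. No erythroid marker passed it. By the correlation of centred values, 0 of the 4 arrays at 30 min lay nearest to their own group, and all 4 lay nearest to 60 min ischemia, with correlations of 0.256 to 0.391 with their own group and 0.329 to 0.475 with 60 min. At 0 min 1 array lay nearest to its own group, the outlying one (0.070). Its duplicate lay nearest to 30 min ischemia (0.199, and 0.193 with its own group), and those of preparation 2 nearest to 0 min with reperfusion. Each array is left out of the mean of its own group, which thus holds fewer arrays than that of another group.

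At 30 against 0 min Fos rose 4.86-fold, 33 of 34 HIF target genes had a positive change and 22 of 25 sterol synthesis enzymes and SREBP targets had a negative one. Over the brightest probe sets of all 10483 genes tested, 5568 changes were positive and 4915 negative. In the HIF and sterol lists 1 gene passed the test on its brightest probe set. By limma, 18 of 18625 probe sets were called at 30 against 0 min, 0.0966% of those tested, 13 of them higher (0.0698%) and 5 lower (0.0268%). Without the outlying array 2 were called, 0.0107%, both higher: Fos and Nfkbil1. At an unadjusted p under 0.05 stood 2911 probe sets with all arrays and 2556 without that array. When the 40 arrays entered the fit as samples with duplicates tied by an estimated correlation, 285 probe sets were called, 1.53%, with 186 higher (0.999%) and 99 lower (0.532%). Without the outlying array 244 were called, 1.31%, with 157 higher (0.843%) and 87 lower (0.467%). These calls lean on duplicates whose independence is not stated. They shared 180 probe sets, which is 63.2% of the calls with the outlying array and 73.8% of the calls without it. In all, 11 of the 18 called probe sets had groups of 4 arrays that did not overlap. Over all tested probe sets, 4.63% stood wholly higher and 4.32% wholly lower at 30 min, and 6.34% and 6.83% without the outlying array.

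Fos encodes a subunit of the AP-1 transcription factor and is the prototype of the immediate early genes. Its level was 10.71 and 10.73 in preparation 1 and 11.04 and 10.77 in preparation 2 at 30 min, against 8.62 and 8.64 in preparation 1 and 8.70 and 8.15 in preparation 2 at 0 min. The 4 arrays at 30 min lay far above the 4 at 0 min, and both preparations showed it. Fos rose by 2.28 log2 units (SE 0.20, adjusted p = 0.00181 by limma), 4.86-fold, and by 2.28 without the outlying array (adjusted p = 0.00269). Most of this rise lay between 10 and 30 min: at 30 against 10 min Fos rose by 1.75 (SE 0.20, adjusted p = 0.00635). Its changes against 0 min were 0.54 at 10 min, 2.28 at 30 min and 2.78 at 60 min, all set against the same 0 min arrays. In the arm with reperfusion the change at 30 min was 0.16, and the difference of the arms, 2.12 log2 units, had an unadjusted p of 1.3e-05 and an adjusted p of 0.125.

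Of the 38 immediate early genes on the array, 36 passed the filter and Fos alone was called. Their median change was 0.39, and 0.26 without the outlying array, against 0.01 over the brightest probe set of all 10483 genes tested. The 4 arrays at 30 min lay wholly above the 4 at 0 min for 10 of the 36 and wholly below for 1, Gadd45b, beside 5.57% and 4.3% of all genes. With arrays as samples 6 of the 36 were called, all higher, with and without the outlying array, beside 0.999% and 0.843% of all probe sets called higher. Against the shared 0 min arrays, the median change of the list was 0.08, 0.39 and 0.46 at 10, 30 and 60 min.

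Egr1, a zinc finger transcription factor of this class, stood at 12.19, 12.09, 11.89 and 11.53 at 30 min, against 11.27, 11.14, 11.22 and 10.79 at 0 min. The groups did not overlap, with the lowest 30 min array a little above the highest 0 min array. Its change was 0.82 (SE 0.14, adjusted p = 0.0683), and 0.85 without the outlying array (adjusted p = 0.08), so it did not pass the test. At 10 min it was 0.07. Junb, an AP-1 partner of Fos, stood at 10.05, 9.59, 9.85 and 9.73 at 30 min, against 9.02, 8.87, 9.18 and 8.78 at 0 min, again with no overlap. Its change of 0.84 (SE 0.16, adjusted p = 0.0736) was 0.88 without the outlying array (adjusted p = 0.0853). Nr4a1, an orphan nuclear receptor, and Ccn1, a secreted matricellular protein, had changes of 0.52 and 0.54 (adjusted p = 0.25 and 0.226), and 0.48 and 0.60 without the outlying array, beside -0.19 and -0.09 at 10 min. For Ier2 the change was 0.39 (adjusted p = 0.293), and 0.41 without the outlying array, beside -0.10 at 10 min.

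Dusp1, a phosphatase that switches off MAP kinases, gives the case in which the outlying array sets the size. Its brighter probe set stood at 11.34, 11.30, 11.51 and 11.48 at 30 min, against 8.50, 10.82, 10.59 and 10.77 at 0 min. All 30 min arrays were higher, and the first 0 min value is the outlying array. The change was 1.24 (SE 0.23, adjusted p = 0.0736) with it and 0.66 (adjusted p = 0.08) without it. On the dimmer probe set of Dusp1 the order was the opposite, with 0.28 with that array and 0.88 without it (adjusted p = 0.791 and 0.162). Rgs2, which shortens Gq signalling, likewise stood at 11.96, 11.93, 11.88 and 11.79 at 30 min, against 10.39, 11.52, 11.35 and 11.10 at 0 min. Its change was 0.80 with that array and 0.52 without it (adjusted p = 0.0736 and 0.163). The dimmer probe set of Rgs2 had 0.29 with that array and 0.59 without it. Zfp36, which speeds the decay of inflammatory mRNAs, had a change of 0.31 (adjusted p = 0.169), and 0.36 without the outlying array, and its groups overlapped.

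**Figure D2:**
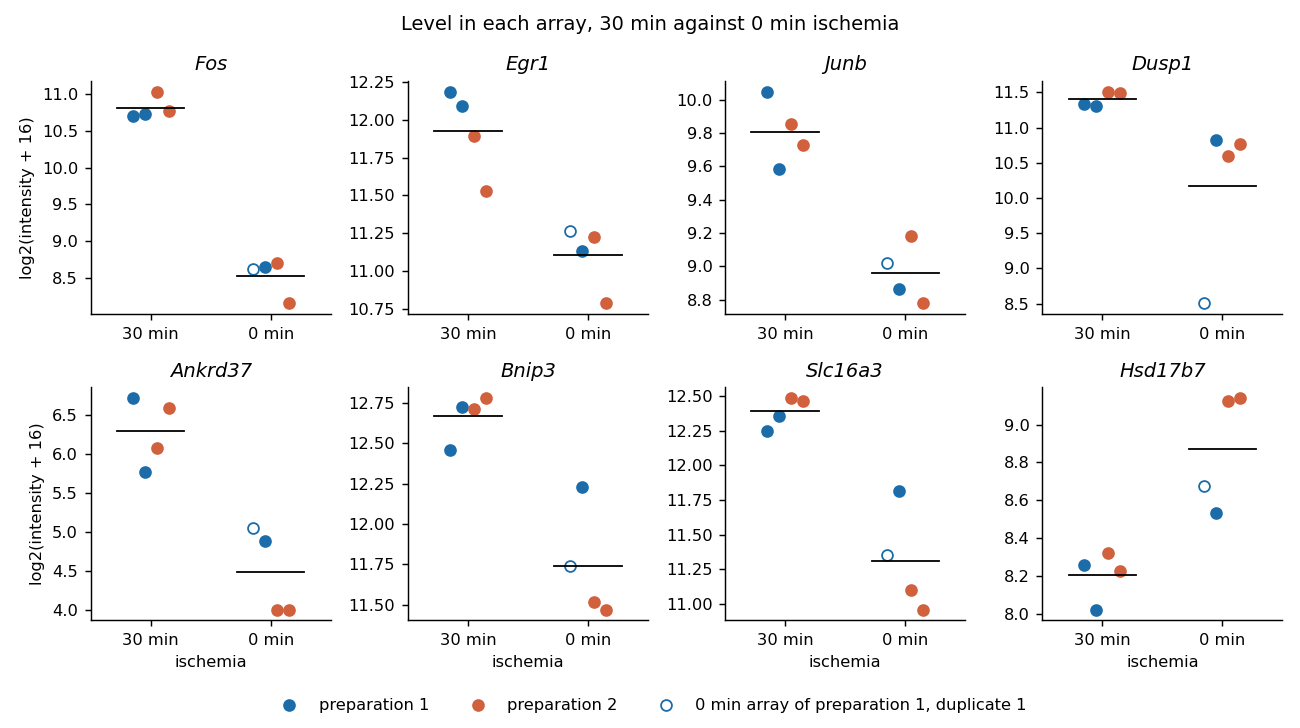
Level of 8 genes in each array as log2(intensity + 16), with 30 min ischemia left of 0 min in every panel; points are arrays coloured by preparation, the open point is the outlying array and the line is the mean of 4 arrays. Fos lies between 10.71 and 11.04 at 30 min and between 8.15 and 8.70 at 0 min, the 2 preparations of Bnip3 and Slc16a3 differ at 0 min, and Dusp1 shows the open point far below the others.

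HIF target genes outside glycolysis were 38 on the list, 37 on the array and 34 past the filter. Their median change was 0.61, and 0.58 without the outlying array, against 0.01 over all genes tested. On the deposited scale, where the median of all probe sets was -0.23, it was 0.38. In both preparations 33 of the 34 stood higher, beside 28.9% of all probe sets, and Bhlhe41, a repressor of the circadian clock, stood lower in both. The 4 arrays at 30 min lay wholly above the 4 at 0 min for 26 members and wholly below for 1, beside 5.57% and 4.3% of all genes. Without the outlying array 28 lay wholly above and 1 below, beside 7.47% and 6.73%. Yet 1 member, Ak4, was called, and none without the outlying array, while with arrays as samples 16 were called, and 15 without that array, beside 1.53% and 1.31% of all probe sets. At an unadjusted p under 0.05, 27 stood higher and 0 lower, beside 8.91% and 6.72% of all probe sets.

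The core of the hypoxia response element, to which HIFs bind, is ACGTG, and its presence near the start of 4 members with large changes is shown here. Sequences run 5′ to 3′ from 250 bases before to 50 after the start, from the RefSeq table on build GRCr8, and capitals mark ACGTG on either strand. The windows are chr16:53001257-53001556, plus strand, chr1:203154913-203155212, minus strand, chr3:77113264-77113563, plus strand and chr20:28436988-28437287, minus strand.
Ankrd37: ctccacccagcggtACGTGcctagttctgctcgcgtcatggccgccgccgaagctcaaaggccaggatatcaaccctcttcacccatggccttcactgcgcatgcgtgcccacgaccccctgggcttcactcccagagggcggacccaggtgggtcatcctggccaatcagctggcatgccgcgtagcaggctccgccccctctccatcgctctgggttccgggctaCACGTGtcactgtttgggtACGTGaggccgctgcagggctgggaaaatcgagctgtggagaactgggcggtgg
Bnip3: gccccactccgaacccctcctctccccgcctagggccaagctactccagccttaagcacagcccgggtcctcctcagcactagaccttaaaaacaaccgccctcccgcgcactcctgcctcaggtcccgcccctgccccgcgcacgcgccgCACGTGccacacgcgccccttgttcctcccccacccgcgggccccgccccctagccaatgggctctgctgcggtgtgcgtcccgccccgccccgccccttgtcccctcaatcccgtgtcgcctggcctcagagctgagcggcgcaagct
Pdk1: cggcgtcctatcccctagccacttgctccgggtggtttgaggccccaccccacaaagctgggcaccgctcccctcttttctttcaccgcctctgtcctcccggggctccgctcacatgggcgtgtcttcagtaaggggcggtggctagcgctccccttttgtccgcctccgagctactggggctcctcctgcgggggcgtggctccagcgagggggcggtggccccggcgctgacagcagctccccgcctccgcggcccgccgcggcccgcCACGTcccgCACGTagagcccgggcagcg
Ddit4: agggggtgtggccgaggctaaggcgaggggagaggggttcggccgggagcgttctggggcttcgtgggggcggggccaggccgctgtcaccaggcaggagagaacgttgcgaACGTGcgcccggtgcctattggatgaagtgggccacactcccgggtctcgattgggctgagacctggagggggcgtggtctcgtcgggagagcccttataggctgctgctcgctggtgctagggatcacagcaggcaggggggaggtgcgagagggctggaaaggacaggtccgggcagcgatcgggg
Ankrd37 holds 4 matches, Bnip3 2, Pdk1 2 and Ddit4 1, counting both strands, so CACGTG, which reads the same on both, counts as 2 overlapping matches. The table matched 27 of the 34 members by symbol, with 29 promoters. Of these, 19 held ACGTG, 65.5%, beside 25.0% of the 9785 promoters of genes tested and 19.3% of all 33469. The variant core GCGTG, whose matches can share letters with those of ACGTG, was in 16 of the 29, 55.2%, beside 48.7% and 29.7%. A match is a run of letters and does not show binding. For immediate early genes, the cyclic AMP response element TGACGTCA, which can share its end letters with an ACGTG match, was in 6 of 28 promoters, 21.4%, beside 3.18% of promoters of genes tested. The loose form of the serum response element, CC and GG with 6 free bases between them, was in 23 of 28, 82.1%, beside 85.7%. The sterol regulatory element of the LDL receptor gene was in 0 of 20 promoters of the sterol list and 0 of those of genes tested, beside 0.125% of all.

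Ankrd37, an ankyrin repeat protein and one of the most HIF-responsive genes known, stood at 6.72, 5.77, 6.07 and 6.59 at 30 min, against 5.06, 4.89, 4 and 4 at 0 min. Both 0 min arrays of preparation 2 were at the floor and those of preparation 1 were below the filter level of 6.48. The 30 min values of 5.77 and 6.07 also lay below that level. The probe set was thus dim in both groups, and the size of the change is set by the added value. It was 1.80 with 16 added (adjusted p = 0.108, with and without the outlying array) and 0.84 with 64 added, and no fold is given. Ndrg1, a stress-induced growth regulator, stood at 11.61, 11.45, 10.91 and 11.02 at 30 min, against 10.09, 10.88, 9.09 and 9.07 at 0 min. All 30 min arrays lay above all 0 min arrays, but only just above the second array of preparation 1. Its change was 1.47 (SE 0.37, adjusted p = 0.145), and 1.27 without the outlying array (adjusted p = 0.23).

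Ak4, a mitochondrial adenylate kinase, was the called member, and its call rests on floor values. Its probe set stood at 9.52, 9.61, 9.64 and 9.64 at 30 min, against 4, 8.82, 4 and 4 at 0 min. The 30 min arrays were nearly equal, at 0 min 3 of 4 arrays lay on the floor, and the fourth, duplicate 2 of preparation 1, was nearest to the 30 min level. No fold is given against values at the floor. The adjusted p was 0.0449 with all arrays and 0.224 without the outlying array. In the outlying array the other probe set of Ak4, at the floor in all other arrays of both groups, stood at 7.45.

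Bnip3, a receptor for the removal of mitochondria, stood at 12.46, 12.72, 12.71 and 12.78 at 30 min, against 11.74, 12.23, 11.52 and 11.47 at 0 min. Its change was 0.93 (SE 0.25, adjusted p = 0.159), and 0.81 (adjusted p = 0.241) without the outlying array, made of 0.36 in preparation 1 and 1.25 in preparation 2. The levels at 30 min were close in both preparations, and the 0 min level was the one that differed. Pdk1, which keeps pyruvate out of mitochondria, had a change of 0.99 (SE 0.32, adjusted p = 0.203), and 0.94 without the outlying array, with 0.55 in preparation 1 without the outlying array and 1.32 in preparation 2. Ndufa4l2, a mitochondrial protein induced by HIF1 and not on the list, stood at 10.15, 10.30, 10.22 and 10.41 at 30 min, against 9.21, 8.85, 7.67 and 6.69 at 0 min. Its groups were well apart, and its change of 2.17 (SE 0.63, adjusted p = 0.181), and 2.25 without the outlying array, had 1.37 in preparation 1 without the outlying array and 3.13 in preparation 2. The difference between the preparations was not tested for these genes.

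Vegfa, the main vessel growth factor, stood at 12.33, 12.23, 12.31 and 12.32 at 30 min, against 11.76, 11.81, 11.63 and 11.43 at 0 min, with a change of 0.64 (SE 0.17, adjusted p = 0.149) and 0.63 without the outlying array. Its 30 min arrays were close to each other and above every 0 min array. The collagen hydroxylases P4ha1 and Plod1 each had a change of 0.70 (adjusted p = 0.123 and 0.16), and 0.64 and 0.72 without the outlying array. Angptl4, an inhibitor of lipoprotein lipase, had 0.89 (SE 0.18, adjusted p = 0.105), and 0.76 without the outlying array. Ddit4, an mTORC1 inhibitor, had 1.04 (SE 0.27, adjusted p = 0.151), and 0.93 without that array. Its changes against 0 min were 0.92, 1.04 and 1.58 at 10, 30 and 60 min.

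For Hilpda and the brighter probe set of Ero1a the outlying array carried much of the size. Ero1a, an oxidase of protein folding, stood at 11.62, 11.65, 11.34 and 11.38 at 30 min, against 8.19, 10.99, 10.35 and 10.21 at 0 min. Its change of 1.56 (adjusted p = 0.0526) was 0.86 (adjusted p = 0.189) without that array, with the groups still apart. The dimmer probe set of Ero1a had 0.40 with that array and 0.83 without it. Hilpda, a lipid droplet protein, had 1.17 with the outlying array and 0.42 without it (adjusted p = 0.187 and 0.386).

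**Figure D3:**
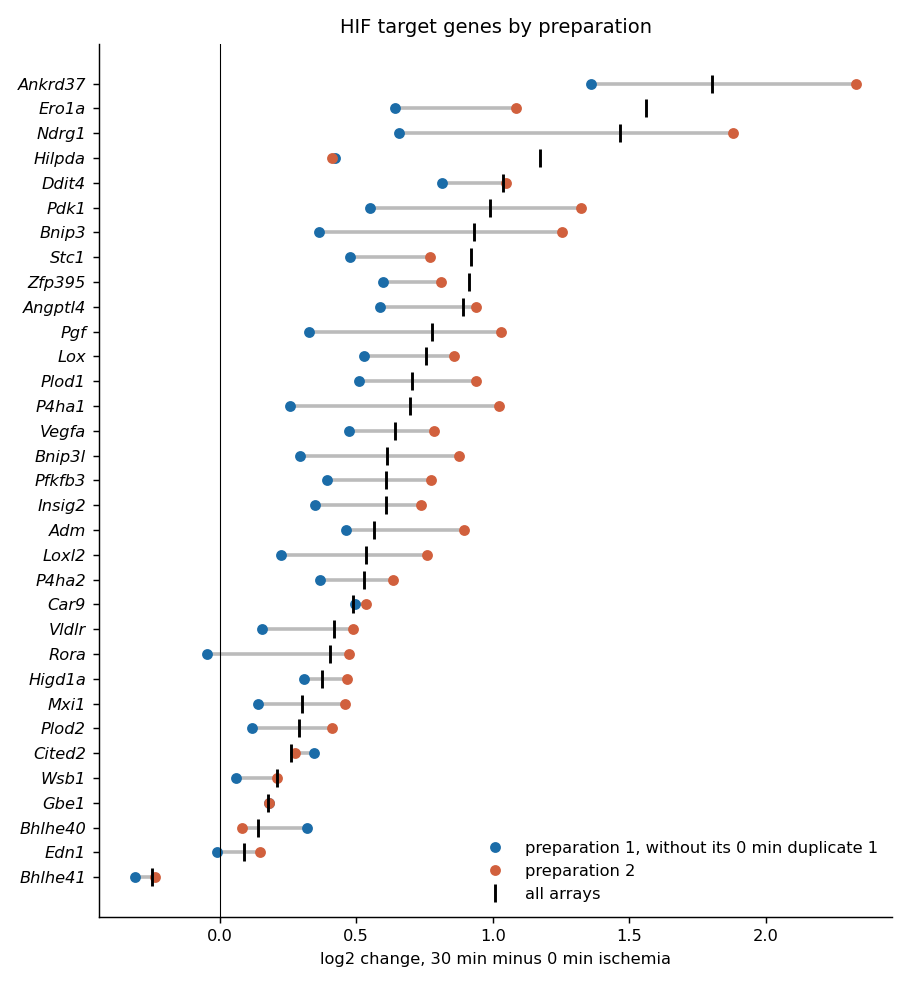
Log2 change at 30 min minus 0 min for 33 HIF targets past the filter (Ak4, at the floor in 3 arrays at 0 min, is left out), with blue points for preparation 1 without its outlying array, orange points for preparation 2 and black ticks for all arrays. Preparation 2 lies to the right of preparation 1 for most genes, and only Bhlhe41 lies below 0 in all 3 values.

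The preparations stood further apart at 0 min than at 30 min. Each array's distance was taken from 1 fixed mean, that of the 3 arrays at 0 min without the outlying one. These 3 arrays are thus part of their own reference, which draws their distances towards it. As the median distance over the 34 HIF targets, the 30 min arrays stood at 0.61 and 0.61 in preparation 1 and at 0.61 and 0.72 in preparation 2. At 0 min the outlying array stood at 0.11, its duplicate at 0.24, and the arrays of preparation 2 at -0.07 and -0.19. Preparation 1 was thus the higher one at 0 min, while both reached a similar level at 30 min. The median change was 0.37 in preparation 1 without the outlying array and 0.77 in preparation 2. At 10, 30 and 60 min the median changes against the shared 0 min arrays were 0.65, 0.61 and 0.59. For the comparison of 30 with 10 min, 0 HIF targets were called in either direction, and the median was -0.03.

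**Figure D4:**
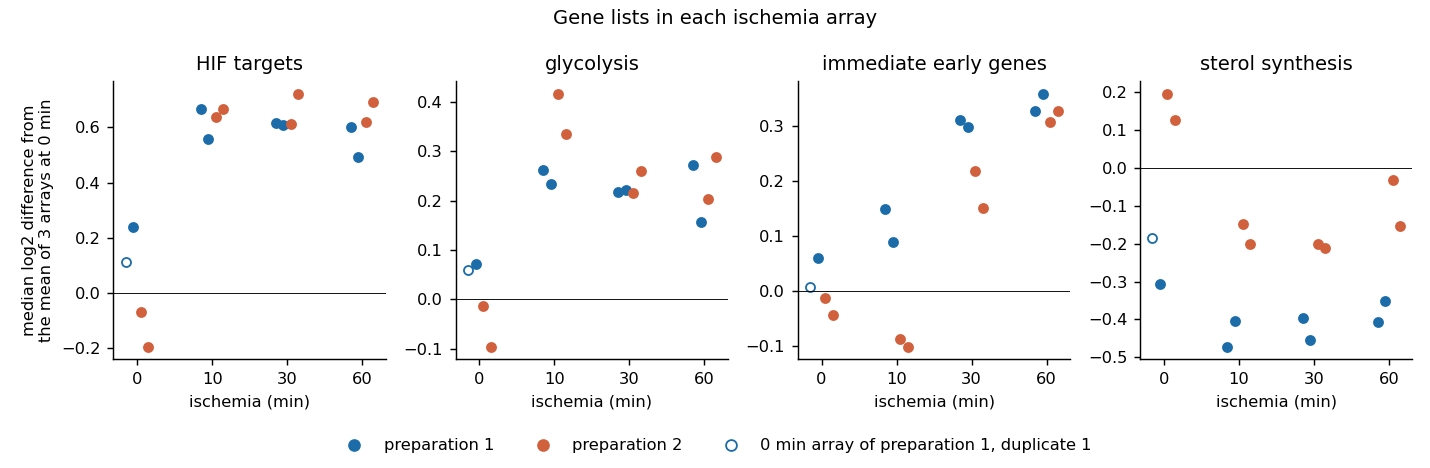
Median over the members of 4 gene lists of each array's log2 difference from the mean of 3 arrays at 0 min, for 0, 10, 30 and 60 min ischemia; points are arrays coloured by preparation and the open point is the outlying array, which is not part of that mean. HIF targets are at a similar height from 10 min on, whereas immediate early genes lie between -0.10 and 0.15 at 10 min and between 0.15 and 0.31 at 30 min.

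The HIF subunits and the hydroxylases that sense oxygen were 15 on the array and 14 past the filter, with 0 called, a median change of 0.24, and 0.18 without the outlying array. Hif1a stood at 12.05, 12.12, 12.06 and 11.81 at 30 min, against 4, 12.07, 12.07 and 12.09 at 0 min. Its change was 1.95 with the outlying array and -0.07 without it (adjusted p = 0.288 and 0.659), so the sign turned. Epas1, the corresponding subunit of HIF2, had a change of -0.18 (adjusted p = 0.381), and -0.16 without the outlying array, with all 30 min arrays below all 0 min arrays. The other tested probe set of Epas1 had -0.11, and -0.07 without the outlying array, and its groups overlapped. Egln1, the main prolyl hydroxylase and itself a known HIF target, stood at 11.49, 11.52, 11.43 and 11.29 at 30 min, against 10.61, 11.06, 10.51 and 10.40 at 0 min, a change of 0.79 (adjusted p = 0.16), and 0.68 without the outlying array. Egln3, a related hydroxylase, and Kdm3a, a histone demethylase, had 0.72 and 0.65 (adjusted p = 0.197 and 0.147), and 0.60 and 0.65 without the outlying array. Their 30 min arrays lay above all 0 min arrays.

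Glucose transport and glycolysis had 21 members on the array, all past the filter. None was called, 13 stood wholly above the 0 min arrays and 1, the lactate transporter Slc16a1, wholly below, beside 5.57% and 4.3% of all genes, and the median change was 0.20, and 0.19 without the outlying array. Many of these probe sets are bright, and their median was 0.36 where arrays were centred on their median, a scaling under which that of the cardiomyocyte markers was 0.15. With arrays as samples 10 were called, and 9 without the outlying array, all higher, beside 0.999% and 0.843% of all probe sets. The size differed between members. Slc16a3, the lactate exporter, stood at 12.25, 12.36, 12.49 and 12.47 at 30 min, against 11.35, 11.82, 11.10 and 10.96 at 0 min, with no overlap. Its change was 1.08 (SE 0.22, adjusted p = 0.105), and 0.97 without the outlying array.

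Hk2, a hexokinase bound to mitochondria, stood at 9.89, 10.09, 9.84 and 10.20 at 30 min, against 9.19, 9.64, 8.13 and 8.38 at 0 min, a change of 1.17 (adjusted p = 0.173), and 1.06 without the outlying array. Pfkl, the liver form of phosphofructokinase, had 1.10 (SE 0.25, adjusted p = 0.115), and 1.03 without that array. The glucose transporters Slc2a1 and Slc2a4 had 0.76 and 0.88 (adjusted p = 0.173 and 0.0656), and 0.67 and 0.60 without it. For all of these genes the 30 min arrays lay above all 0 min arrays. Other members that act at these steps had smaller values on their brightest probe sets: the hexokinase Hk1 had a change of 0.01 and the phosphofructokinases Pfkp and Pfkm had 0.20 and 0.33, and -0.03, 0.16 and 0.13 without the outlying array. A dimmer probe set of Hk1 had 0.74, and 0.45 without that array, with groups that overlapped. Dimmer ones of Pfkm had -0.13 and -0.39, and 0.11 and -0.07 without it. Ldha, which makes lactate from pyruvate, was near the top of the array scale, at 13.31 to 13.45 at 30 min and 13.26 to 13.37 at 0 min, with a change of 0.10 (adjusted p = 0.418), and 0.11 without the outlying array.

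Of the sterol synthesis enzymes and SREBP targets on the array all 25 passed the filter, and 22 had a negative and 3 a positive change. On the brightest probe set of each gene 0 were called, 21 stood lower and 0 higher in both preparations, beside 28.9% and 28.9% of all probe sets, and the median change was -0.21 (-0.22 without the outlying array). The 4 arrays at 30 min lay wholly below the 4 at 0 min for 4 of the 25, beside 4.3% of all genes, and for 5 without the outlying array, beside 6.73%, and wholly above for 0. With arrays as samples 6 were called, and 3 without that array, all lower, beside 0.532% and 0.467% of all probe sets. Hsd17b7, a sterol reductase, stood at 8.26, 8.02, 8.32 and 8.23 at 30 min, against 8.68, 8.54, 9.12 and 9.14 at 0 min. The groups did not overlap, and the change was -0.66 (SE 0.13, adjusted p = 0.0915), and -0.63 without the outlying array. Idi1, which makes dimethylallyl diphosphate, stood at 10.67, 10.63, 10.69 and 10.47 at 30 min, against 11.06, 10.84, 11.44 and 11.43 at 0 min. Its change was -0.58 (SE 0.14, adjusted p = 0.144), and -0.52 without the outlying array.

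Without the outlying array the median of the sterol list was -0.13 in preparation 1 and -0.31 in preparation 2, a difference that was not tested. Fdft1, the squalene synthase, had a change of -0.51 (SE 0.09, adjusted p = 0.0736), and -0.41 without the outlying array, with -0.20 in preparation 1 without the outlying array and -0.61 in preparation 2. Fdps and Lss, which act before and after squalene, had -0.33 and -0.42 (adjusted p = 0.112 and 0.15), and -0.30 and -0.42 without the outlying array. Cyp51, the lanosterol demethylase, was called on its dimmer probe set, which stood at 9.82, 9.88, 10.16 and 10.07 at 30 min, against 11.63, 9.73, 10.83 and 10.50 at 0 min. The change was -0.69 (SE 0.09, adjusted p = 0.0177) with the outlying array and -0.22 (adjusted p = 0.551) without it. The brighter probe set of Cyp51 stood at 11.40, 11.41, 11.60 and 11.52 at 30 min, against 10.03, 11.43, 11.98 and 11.99 at 0 min, so in the outlying array it was low where the dimmer one was high.

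**Figure D5:**
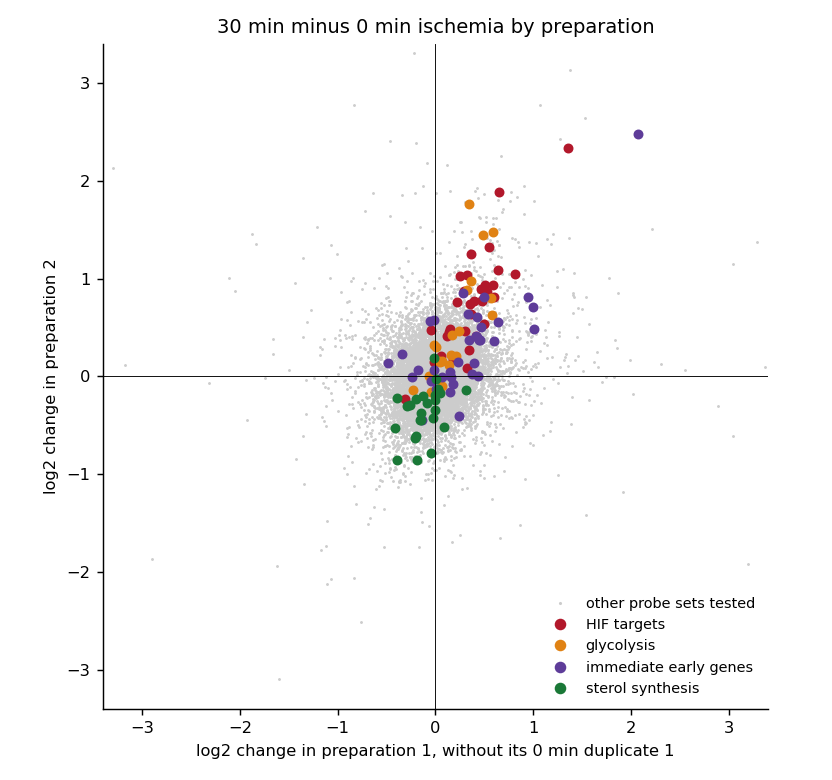
Log2 change at 30 min minus 0 min in preparation 1 without the outlying array (x axis) and in preparation 2 (y axis) for the probe sets tested, with 4 gene lists coloured; 8 probe sets outside the axes, 1 of them Ak4, are not drawn. HIF targets and glycolysis genes lie mostly above 0 on both axes and further up than to the right, Fos is the uppermost immediate early gene, and sterol genes lie mostly below 0.

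Over all tested probe sets the changes of the 2 preparations correlated by 0.153, and by 0.229 without the outlying array, as a description across probe sets of 8 arrays that share normalization.

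Inflammatory genes were 22 past the filter, with 0 called and a median change of 0.14, and 0.11 without the outlying array, a value that turned to -0.11 on the deposited scale, where the median of all probe sets was -0.23. Cxcl2, a neutrophil-attracting chemokine, stood at 8.72, 8.89, 8.80 and 8.40 at 30 min, against 7.48, 7.67, 7.32 and 7.08 at 0 min. The groups were well apart, with a change of 1.32 (SE 0.24, adjusted p = 0.0736), and 1.27 without the outlying array (adjusted p = 0.1). With arrays as samples its adjusted p was 0.014, and 0.0341 without the outlying array. Its change at 30 min with reperfusion was 1.57. Ptgs2, the inducible cyclooxygenase, and Il6 had 0.70 and 0.90 (adjusted p = 0.111 and 0.145), and 0.66 and 0.84 without the outlying array, beside 0.08 and 0.00 at 10 min. Their 30 min and 0 min arrays overlapped.

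The remaining called genes include some in which the duplicates at 0 min differed from each other by more than the groups. Nfkbil1, related to the inhibitors of NF-kB, stood at 8.97, 9.09, 9.12 and 9.12 at 30 min, against 8.90, 7.89, 7.82 and 8.85 at 0 min. In both preparations 1 duplicate at 0 min was close to the 30 min level and the other was about 1 log2 unit lower, so their averages agree while the arrays do not. Its rise was 0.71 (SE 0.06, adjusted p = 0.00181), and 0.96 without the outlying array (adjusted p = 0.00779). Fa2h, a fatty acid hydroxylase, stood at 7.08, 7.01, 7.39 and 7.19 at 30 min, against 7.16, 4, 5.99 and 6.27 at 0 min. Its adjusted p of 0.00333 was 0.105 without the outlying array, 0.0892 with arrays as samples and 0.0118 with arrays as samples without the outlying array.

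Rgs4, which shortens Gq and Gi signalling, stood at 10.32, 10.38, 10.27 and 10.22 at 30 min, against 8.15, 9.76, 8.78 and 8.48 at 0 min. It rose by 1.51 (SE 0.23, adjusted p = 0.0449), and its change was 1.10 without the outlying array (adjusted p = 0.171). Its 30 min arrays were nearly equal and above every 0 min array, and with arrays as samples its adjusted p was 0.00961, and 0.024 without the outlying array. Trip10, a membrane-curving partner of Cdc42, rose by 0.74 (adjusted p = 0.045), and its change was 0.58 without that array (adjusted p = 0.178). Ift43, of the ciliary transport machinery, Phf24 and Thap3 rose by 0.61, 1.16 and 0.47 (adjusted p = 0.016, 0.0449 and 0.0449). Without the outlying array their changes were 0.45, 0.84 and 0.27 (adjusted p = 0.13, 0.224 and 0.409), and the groups of Phf24 and Thap3 overlapped. The other tested probe sets of Phf24 and Thap3 had 1.04 and -0.02, and 0.89 and -7.8e-05 without that array.

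Rab15, a GTPase of endosomal recycling, stood at 7.92, 8.10, 6.85 and 8.19 at 30 min, against 4.76, 7.62, 6.51 and 6.20 at 0 min. Its groups overlapped, and its rise of 1.49 (adjusted p = 0.0449) was a change of 0.78 without the outlying array (adjusted p = 0.307). It rose also at 30 against 10 min, by 1.29 (adjusted p = 0.0481). The other tested probe set of Rab15 had a change of 0.07, and 0.13 without the outlying array, and its groups overlapped. Another 4 called probe sets carry no symbol or several and are not named.

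Fewer genes were called lower. Tmem71 stood at 7.22, 7.27, 6.88 and 7.45 at 30 min, against 8.18, 8.06, 8.18 and 8.76 at 0 min. It fell by 1.09 (SE 0.14, adjusted p = 0.0239), with a change of -1.06 without the outlying array (adjusted p = 0.0601). Scn1a, a voltage-gated sodium channel best known from neurons, stood at 6.19, 6.16, 5.97 and 5.87 at 30 min, against 6.97, 6.86, 7.52 and 7.35 at 0 min. It fell by 1.13 (SE 0.17, adjusted p = 0.0449), with -1.10 without the outlying array (adjusted p = 0.08). For both genes the groups did not overlap and the outlying array lay within the range of the other 0 min arrays. Scn1a had an adjusted p of 0.000341 with arrays as samples, and 0.00046 without the outlying array. Uox, urate oxidase, was at the floor in 3 of the 4 arrays at 30 min and at 7.56 in the first array of preparation 2, against 7.36, 8.17, 7.33 and 7.32 at 0 min. It was called lower (adjusted p = 0.0449, and 0.08 without the outlying array), and no fold is given at the floor.

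Among the 12 largest positive and the 12 largest negative changes with groups apart and an unadjusted p under 0.01, 6 positive and 3 negative ones shrank by over 1.5 times without the outlying array. Plin3, a lipid droplet coat protein, had a change of 2.24 with that array and 0.38 without it, Lonp1, a mitochondrial protease, 1.57 and 0.33, and Tubb4a, a tubulin, 1.97 and 1.08. Among the negative ones, Raph1 had -1.29 with that array and -0.46 without it, Smyd1, a muscle methyltransferase, -1.03 and -0.43, and Prpf38b, a splicing factor, -0.98 and -0.59. Other tested probe sets of Prpf38b had -0.005 and 0.87, and -0.03 and 0.32 without that array, so they did not share its fall. Those of Raph1 had -0.17, -0.19 and 0.01, and -0.36, -0.14 and -0.07 without it. Those of Tubb4a had 1.66 and -0.57, and 2.09 and 0.15 without it. The changes of Ankrd37, Ndufa4l2 and Six5, a homeobox factor, were nearly the same either way. Six5 stood at 8.38, 8.23, 8.42 and 9.47 at 30 min, against 6.79, 7.02, 6.95 and 6.09 at 0 min, with a change of 1.91 (SE 0.46, adjusted p = 0.131), and 1.85 without that array.

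Other negative changes kept most of their size without the outlying array. Ksr1, a scaffold of the MAP kinase cascade, stood at 6.83, 6.47, 6.81 and 6.74 at 30 min, against 7.79, 7.58, 7.71 and 7.71 at 0 min. The groups were narrow and apart, and its change was -0.99 (SE 0.17, adjusted p = 0.0733), and -0.93 without the outlying array. It was -0.12 at 10 min and -0.33 at 60 min. Ccnjl, a cyclin J relative, had -0.90 and -0.86 (adjusted p = 0.0917 and 0.113 without that array), Adamts19, a secreted metalloprotease, -1.04 and -0.98, and Gse1 -0.82 and -0.88. The other tested probe set of Gse1 went up, by 0.26 and 0.24, with all 30 min arrays above all 0 min arrays. That of Ksr1 had -0.14 and -0.08, and its groups overlapped.

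Hmox1, which breaks down heme, and Rrad, a small GTPase that limits calcium channels, had changes of 1.01 and 1.45 (adjusted p = 0.201 and 0.197), and 0.93 and 1.33 without the outlying array, with the 30 min arrays above all 0 min arrays. The NRF2 targets with Hmox1 had a median of 0.03 over 24 genes, and 40 respiratory chain genes had 0.00, and 0.04 and 0.00 without the outlying array. Of 30 proteasome genes 20 stood lower and 1 higher in both preparations, beside 28.9% and 28.9% of all probe sets, with a median of -0.05 with and without the outlying array. Tcap, of the sarcomere's Z disc, and Lrrc10, a cardiac actinin-binding protein, had -0.64 and -0.63 (adjusted p = 0.292 and 0.271), and -0.62 and -0.60 without the outlying array, while the 22 sarcomere genes had a median of -0.01, and -0.02 without it. Srsf1, a splicing factor, had -0.23 (adjusted p = 0.169), and -0.26 without the outlying array, with all 30 min arrays below all 0 min arrays. The other tested probe set of Srsf1 had -0.12, and -0.13 without the outlying array, and its groups overlapped. Pecam1, the endothelial adhesion molecule, had 0.61 (adjusted p = 0.266), and 0.63 without the outlying array. It was 1 of 7 endothelial markers with a positive change, and of the other 3 Plvap had -0.42 (adjusted p = 0.458), and -0.49 without the outlying array.

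Against the neighbouring times, more probe sets were called at 30 against 10 min than at 60 against 30 min. At 30 against 10 min 47 probe sets were called by limma, 0.252%, 30 higher (0.161%) and 17 lower (0.0913%), and 80 were called in the fit without the outlying array, which changes only the shared spread here. With arrays as samples 100 were called, and they held 19 of the 47. In some of the 47 the duplicates at 10 min differed by about as much as the change. Psmd14, with a change of 0.62, read 9.45 and 8.60 in preparation 1 and 9.33 and 8.64 in preparation 2 at 10 min. In others, such as Fos, the duplicates differed by much less than the change. At 60 against 30 min 0 were called, 0.0%, with 476 at an unadjusted p under 0.05 and 0 called with arrays as samples. The change at 30 min was also set against that of the arm with reperfusion. For this difference of changes 0 probe sets were called, 0.0%, with 1072 at an unadjusted p under 0.05 and 5 called with arrays as samples. A count of 0 calls does not show that the times or the arms were alike.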

How the data were processed

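The 40 arrays were described by GEO's labels, and the deposited table held linear probe set intensities between -1725 and 17404, 15.8% of them negative. RNA was extracted on spin columns and labelled as biotinylated cRNA, per the labels' protocols; the algorithm behind the deposited intensity values is not given in the sources used here. Values were quantile-normalized, set to a floor of 0, and transformed as log2(value + 16). Of 31042 probe sets, 18625 with a mean above the 40th percentile (log2 6.48) were tested, 14311 of them with 1 symbol (10483 genes). Duplicates were averaged, and all 10 groups entered limma 3.58.1 (lmFit, eBayes, R 4.3.3) with an additive block for the preparation and Benjamini-Hochberg adjustment at 0.05 (9 residual degrees of freedom). The block comes from the labels, which give a preparation number in every group; across groups, the difference of the preparations had a median correlation of 0.184, over 0.1 in 34 of 45 pairs. The outlying array stays in every value unless stated. Genes were named from probe sets with 1 symbol: every called one, the 12 largest rises and 12 largest falls with groups apart, the 4 members of each list with the smallest p, and members of the HIF, hydroxylase, glycolysis, immediate early and sterol lists; 1 of these is not reported here. The brightest probe set stood for a gene in a list. The members and lists were chosen with earlier results of these data known. The fit was tested on simulated data.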

Additional observations from a re-analysis of the deposited data

Results flagged for a closer look

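In 144 groups of 4 arrays tested over 72 named genes, 13 held an array whose gap to its nearest neighbour exceeded the share of the group's range that Dixon's test allows, where chance gives about 1 in 20. At 0 min the outlying array was the low one for Dusp1 (0.903), Hilpda (0.878), Hif1a (0.998), Plin3 (0.969) and Lonp1 (0.91), and the high one for Prpf38b (0.952) and Raph1 (0.907). Its duplicate was the high one for Ak4 (1.0) and Uox (0.954), and the second array of preparation 2 was the low one for Fos (0.854). At 30 min the first array of preparation 2 was the high one for Uox (1.0), the second of preparation 2 for Six5 (0.845), and the second of preparation 1 was the low one for Thap3 (0.879). In the outlying array 1409 probe sets lay over 2 log2 units from the mean of the other arrays, while each of the other 39 arrays had 28 to 162 such probe sets.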

How the results depend on the processing

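The number of preparations limits the precision. At 30 against 0 min, 18 calls became 35 without the filter, 28 with a trended and robust eBayes, 285 with arrays as samples and 244 with arrays as samples without the outlying array, a choice added after the data were seen. They became 0 in a fit of only the 8 arrays compared, where the adjusted p of Fos was 0.716 and 1164 probe sets had an unadjusted p under 0.05. That fit has fewer samples. Leaving out 1 array of the groups compared gave 2 to 68 calls, 2 where that array was the outlying one 68 where it was the second 0 min array of preparation 2, and 44 where it was the first 30 min array of preparation 1. The fit shares its spread with other groups: leaving out 1 array of 10 or 60 min ischemia, or of 0 or 30 min with reperfusion, gave 6 to 25 calls, with 8, 6 and 6 of the 18 kept without the first and second 0 min reperfusion arrays of preparation 1 and the first of preparation 2, and 11 without the first 60 min array of preparation 1. At 30 against 10 min, 47 calls became 95 on the deposited scale (3 higher, 92 lower), 27 with a filter at the 60th percentile, 100 and 150 with arrays as samples, with and without the outlying array, and 0 in the fit of only the groups compared, and leaving out 1 array of the groups compared gave 16 to 98, and of the other groups 9 (the first 0 min reperfusion array of preparation 2) to 80 (the outlying array). At 60 against 30 min, 0 calls became 6 without the filter and 0 to 2 with 1 array left out of any of these groups. The difference of the arms had 7 calls without the filter, 5 with arrays as samples, either way, and 0 to 1 with 1 array left out. The cause of these moves was not tested. Without the preparation block 14 were called at 30 against 0 min, and Cyp51, Phf24, Rgs4 and Scn1a were not; the block changed no other count by over 1.5 times. On the deposited scale, 4 of 16 calls were higher, beside 13 of 18. Of 72 named genes, Hif1a turned direction, to -0.066 without the outlying array and to -0.073 with arrays as samples without it, and leaving out its duplicate gave 3.97. Fos was called under every setting except the fit of only the groups compared. Apart from the outlying array, among the 8 arrays compared calls of named genes were lost without its duplicate (Cyp51, Nfkbil1, Fa2h, Rab15, Uox), without the first 0 min array of preparation 2 (Cyp51, Nfkbil1, Ift43, Thap3, Trip10), without the first 30 min array of preparation 1 (Thap3, Trip10) and without the second of preparation 2 (Rab15, Uox, Trip10). The HIF median ran down to 0.38 on the deposited scale.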
